A study of Mus musculus with 6 samples.

Results

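The 10 genes described here make, lengthen and desaturate fatty acids, and their RNA was measured in cultured mouse macrophages. They are the regulator Srebf1, the synthesis enzymes Acly, Acaca and Fasn, the elongases Elovl5 and Elovl6, and the desaturases Scd1, Scd2, Fads1 and Fads2. The 10 genes were taken by symbol from the 21912 gene symbols of the mRNA table, where each has 1 Ensembl gene identifier, and the 29 transcripts listed for them were summed per gene. Of the 10 genes, 10 passed the filter of a mean over all 6 libraries of at least 1 FPKM (fragment counts corrected for the length of the transcript and the size of the library). It left 10390 genes to test.

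The libraries were 3 labelled control and 3 labelled M, all of total RNA from macrophages and without a stated genotype, strain, dose or time. The series concerns foam cells formed under oxidised low-density lipoprotein (ox-LDL), and the comparison asks how M macrophages differ from control macrophages. The titles name only the control libraries, while the extraction text describes all 6 as ox-LDL induced, so M is read as the ox-LDL group with that reservation. No label says whether libraries of a group came from separate cultures, so p-values measure the spread between libraries, which may be technical.

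Cytosolic fatty acid synthesis starts from citrate, which ATP citrate lyase (Acly) splits to acetyl-CoA. Acetyl-CoA carboxylase (Acaca) makes malonyl-CoA from it, and fatty acid synthase (Fasn) builds palmitate. Elongases then add carbon pairs, stearoyl-CoA desaturases (Scd1, Scd2) place the first double bond of monounsaturated fatty acids, and the front-end desaturases Fads1 and Fads2 work on polyunsaturated ones. The membrane-bound transcription factor SREBP-1, encoded by Srebf1, is released by proteolysis and switches these genes on, and the oxysterol receptor LXR induces Srebf1 and Scd1.

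All 10 genes fell in M. They were chosen with earlier results of these data known, and no test was made over them as a set. Each was called lower by limma (adjusted p under 0.05), against 21.9% of all tested genes called lower, and in each the highest M library lay below the lowest control library, which held for 28.1% of all tested genes. Their median log2 fold change, on the scale of log2(FPKM + 1) and as M minus control, was -0.52, against -0.01 over all tested genes. The fall was unequal. Scd1 went to 7.15% of its control mean and Scd2 to 20.5%, Fasn to 46.4%, and the other 7 genes to between 59.5% (Elovl6) and 90.4% (Fads1). In bulk RNA, fewer cells of a type and less RNA per cell cannot be told apart.

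**Figure D1:**
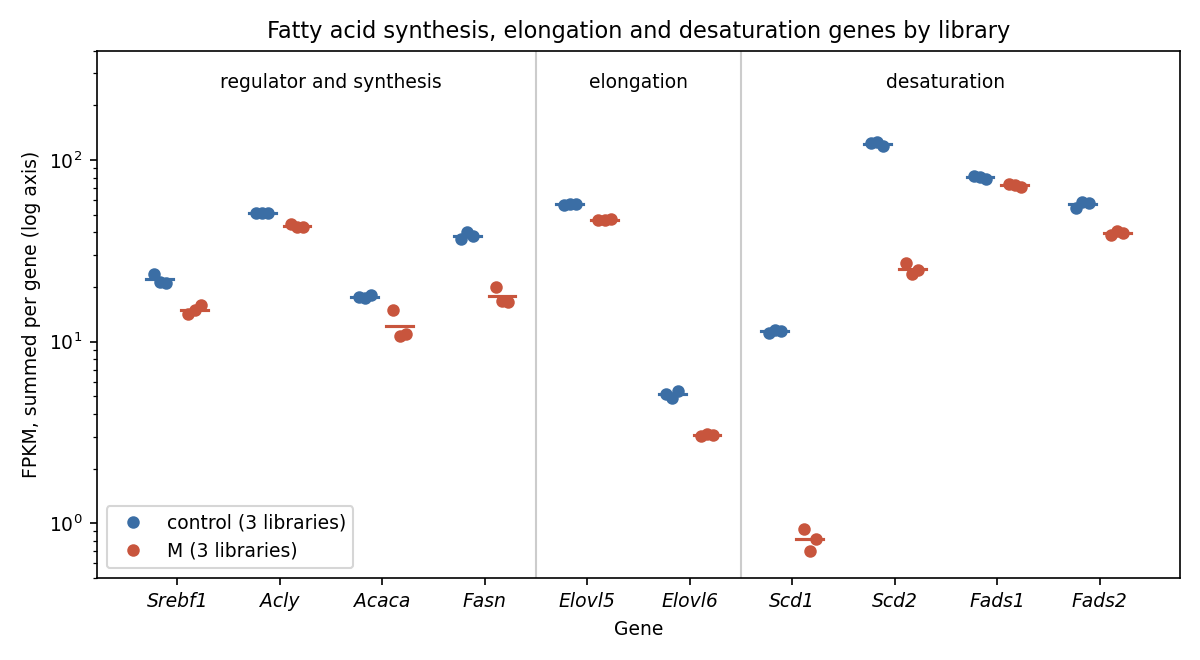
FPKM summed per gene (log axis) for the 10 genes in 3 control (blue) and 3 M (red) libraries, with points for libraries and short lines for group means. In every gene the M points lie below the control points, with the widest gap in Scd1 (11.4 against 0.815 FPKM on average).

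RefSeq promoters (GRCm38.p6, 250 bases before to 50 after a start) were matched by symbol for 7 of the 10 genes, in 9 windows. Scd1, Scd2 and Fads1 had no window, so the motif counts below leave out Scd1 and Scd2, the genes with the largest falls. Shown are the promoters of Fasn, the enzyme with the largest fall among the 7, and of Elovl5, the one with an E-box. That of Srebf1, the regulator, is shown at the third of 3 listed starts, the one with both CCAAT and GGGCGG. The first start has only CCAAT of these and the second only GGGCGG, and which start these cells use was not tested. Capitals mark CCAAT (the letters bound by NF-Y), GGGCGG (GC box, bound by Sp1) and CACGTG (E-box), on either strand.
Fasn, chr11:120824498-120824797, minus strand: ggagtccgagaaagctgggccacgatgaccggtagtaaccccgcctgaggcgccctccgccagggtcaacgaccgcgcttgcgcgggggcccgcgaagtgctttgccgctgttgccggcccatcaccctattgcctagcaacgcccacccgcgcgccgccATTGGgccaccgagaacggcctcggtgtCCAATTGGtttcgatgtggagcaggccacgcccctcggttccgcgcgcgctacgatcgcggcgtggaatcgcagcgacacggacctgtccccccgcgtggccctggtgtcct
Srebf1, chr11:60210422-60210721, minus strand: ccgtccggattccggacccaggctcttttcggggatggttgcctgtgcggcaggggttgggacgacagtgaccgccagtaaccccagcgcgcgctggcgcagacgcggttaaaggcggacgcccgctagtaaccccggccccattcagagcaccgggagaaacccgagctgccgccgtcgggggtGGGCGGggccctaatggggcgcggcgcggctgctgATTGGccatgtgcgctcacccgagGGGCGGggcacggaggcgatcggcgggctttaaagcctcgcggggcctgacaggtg
Elovl5, chr9:77917115-77917414, plus strand: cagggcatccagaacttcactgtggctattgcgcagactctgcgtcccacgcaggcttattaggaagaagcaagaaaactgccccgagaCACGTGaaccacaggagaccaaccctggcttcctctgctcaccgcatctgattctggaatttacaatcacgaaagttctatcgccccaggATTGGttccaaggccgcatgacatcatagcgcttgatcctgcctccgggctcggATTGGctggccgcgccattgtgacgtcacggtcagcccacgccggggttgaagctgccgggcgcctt

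The CCAAT letters occurred in 5 of the 9 windows (Srebf1 at 2 of its starts, Acly, Fasn and Elovl5), against 37.4% of 32851 RefSeq promoters of the same length. In Fasn they occurred 3 times, and 2 of these matches, on opposite strands at positions -62 and -59, overlap. GGGCGG occurred in 4 windows (35.7% of all promoters) and CACGTG in 1 (7.15%). TCACNCCAC, a spelling of the sterol regulatory element to which SREBP binds, occurred in 0 of the 9 windows and in 1.24% of all promoters, which says only that these letters are not in these windows.

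Srebf1 (ENSMUSG00000020538), the regulator, stood at 23.5, 21.4 and 21.1 FPKM in control 1 to 3 and at 14.2, 14.9 and 15.8 in M 1 to 3. All 3 M libraries lay below all control libraries. The log2 fold change was -0.53 ± 0.0586 (SE, limma adjusted p = 2.74e-04), which leaves the M mean at 68.0% of control.

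Srebf1 was listed with 3 transcripts, and they did not move alike. ENSMUST00000020846 fell from 12.1 ± 1.34 to 7.04 ± 1.73 FPKM (SD, n = 3; limma over all transcripts, adjusted p = 0.0404, against 9.56% of 16851 tested transcripts called lower). ENSMUST00000134660 stood at 9.49, 5.58 and 8.23 FPKM in control 1 to 3 and at 8.10, 7.68 and 6.76 in M 1 to 3, with overlapping groups (adjusted p = 0.964). ENSMUST00000144942 was at 2.10, 2.30 and 2.03 FPKM in control 1 to 3 and at 0.0324, 1.19 and 0.0339 in M 1 to 3, which was not called (adjusted p = 0.0600). The files do not say which transcript encodes which SREBP-1 isoform. The share of ENSMUST00000134660 in the gene ran from 26.0% to 40.4% in control and from 42.7% to 56.9% in M. It was thus listed at a larger share in every M library. The share of ENSMUST00000020846 ran from 50.7% to 63.3% in control and from 40.3% to 57.1% in M, with overlapping groups. That of ENSMUST00000144942 ran from 8.94% to 10.7% in control and from 0.214% to 8.03% in M. How fragments were assigned to transcripts is not stated, and its part in these shares was not tested.

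Acly (ENSMUSG00000020917), which supplies cytosolic acetyl-CoA, was the synthesis enzyme with the smallest change. It stood at 50.9, 51.1 and 51.3 FPKM in control 1 to 3 and at 44.7, 42.8 and 42.5 in M 1 to 3, with no overlap (log2 fold change -0.23 ± 0.0360 SE, limma adjusted p = 0.00145). Its main transcript, ENSMUST00000165111, held 90.6% to 92.8% of the gene in all 6 libraries and fell with it.

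Acaca (ENSMUSG00000020532), whose product malonyl-CoA is the building block for both synthase and elongases, stood at 17.6, 17.4 and 18.0 FPKM in control 1 to 3. The M libraries were at 14.9, 10.7 and 11.001 FPKM, so M 1 lay closer to control than M 2 and M 3 did. The log2 fold change was -0.51 ± 0.114 SE (limma adjusted p = 0.0102), and -0.66 without M 1 (adjusted p = 1.46e-04).

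The transcripts of Acaca show M 1 to be unlike the other libraries. ENSMUST00000020843 held 70.4% to 77.2% of the gene in the other 5 libraries and was listed at 0 in M 1. In its place ENSMUST00000103201 was listed at 6.94 FPKM in M 1, against at most 0.00192 FPKM in the other 5, and ENSMUST00000130012 at 5.20 against at most 0.753. In the sum per gene M 1 stood out less than in any of these 3 transcripts. Taking only the most abundant transcript gave a log2 fold change of -1.69 and no call (adjusted p = 0.221). The sources used here do not state how fragments were assigned to transcripts, and the part of that step in this pattern was not tested.

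**Figure D2:**
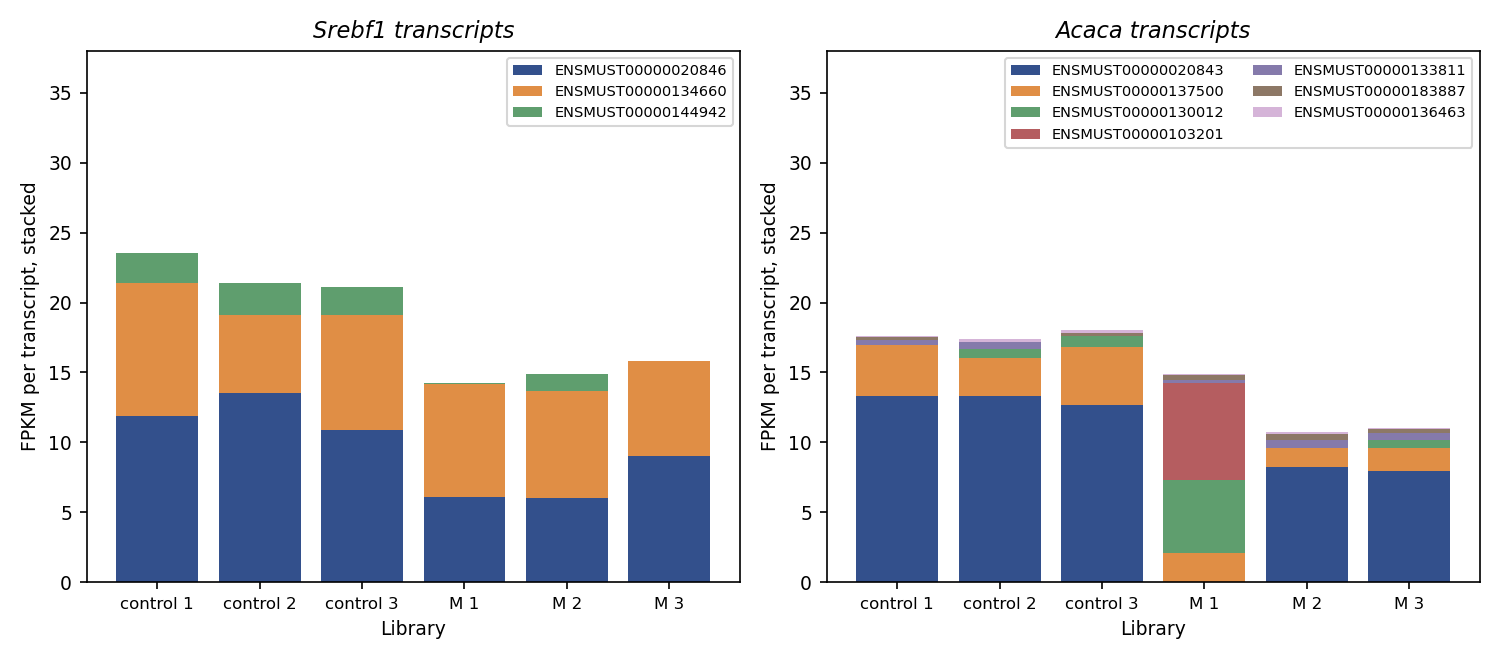
FPKM of each listed transcript of Srebf1 (left) and Acaca (right), stacked by library, for 3 control and 3 M libraries. In Acaca, M 1 has none of the transcript that holds 70.4% to 77.2% of the other libraries, and its total of 14.9 FPKM lies between those of the other M libraries and those of control.

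Fasn (ENSMUSG00000025153), the synthase whose promoter is printed above, had the largest change of the synthesis enzymes. It stood at 36.8, 40.3 and 38.01 FPKM in control 1 to 3 and at 19.9, 16.8 and 16.6 in M 1 to 3. The M libraries lay together at less than 20 FPKM and far from the control ones (log2 fold change -1.07 ± 0.0724 SE, limma adjusted p = 2.47e-05). Ordered from the lowest log2 fold change, Fasn was number 84 of the 10390 genes tested. Called genes with a log2 fold change of -1 or lower made up 1.03% of the tested genes, and of the 10 genes here Fasn, Scd1 and Scd2 were among them.

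Both elongases fell, by less than Fasn. Elovl5 (ENSMUSG00000032349), which lengthens polyunsaturated fatty acids, stood at 56.7, 57.4 and 57.6 FPKM in control 1 to 3 and at 46.7, 46.8 and 47.5 in M 1 to 3. Its libraries lay close together within groups, and the fall was to 82.1% of control (log2 fold change -0.28 ± 0.0326 SE, limma adjusted p = 3.57e-04). Elovl6 (ENSMUSG00000041220), which lengthens palmitate and palmitoleate, stood at 5.13, 4.90 and 5.37 FPKM in control and at 3.003, 3.11 and 3.05 in M. No M library came near the control range (log2 fold change -0.60 ± 0.0619 SE, adjusted p = 1.96e-04). For this gene of low level the log2 fold change was -0.33 with a pseudocount of 5, because the added constant exceeds the M values.

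Scd1 (ENSMUSG00000037071), which makes oleate and palmitoleate, had the largest change of the 10 genes. It stood at 11.2, 11.6 and 11.5 FPKM in control 1 to 3 and at 0.925, 0.706 and 0.813 in M 1 to 3. Each control library was above 11 FPKM and each M library below 1, a ratio of means of 14.0. The filter takes the mean of all 6 libraries, so Scd1 passed it through its control values alone. The log2 fold change was -2.77 ± 0.0691 SE (limma adjusted p = 1.72e-07), number 6 from the lowest of all tested genes, and pseudocounts of 0.1 and 5 gave -3.66 and -1.50.

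Scd2 (ENSMUSG00000025203), the paralogue of the same activity, was the most abundant of the 10 genes in control. It stood at 124, 125 and 120 FPKM in control 1 to 3 and at 27.2, 23.6 and 24.8 in M 1 to 3. Its M libraries held 20.5% of the control mean (log2 fold change -2.24 ± 0.0540 SE, limma adjusted p = 1.50e-07; number 11 from the lowest). Scd1 and Scd2 were each listed with 1 transcript. Fragments from stretches that the Scd paralogues share could have been split between them by the authors' counting, so the level of each is less certain than that of a gene without near copies.

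The front-end desaturases changed much less. Fads1 (ENSMUSG00000010663), the delta-5 desaturase, stood at 81.6, 80.8 and 78.9 FPKM in control 1 to 3 and at 73.6, 73.2 and 71.3 in M 1 to 3. The groups did not overlap, and the fall to 90.4% of control was the smallest of the 10 (log2 fold change -0.14 ± 0.0343 SE, limma adjusted p = 0.0113). Fads2 (ENSMUSG00000024665), the delta-6 desaturase, stood at 54.7, 58.7 and 57.7 FPKM in control and at 38.6, 40.7 and 39.7 in M. It lost more than its partner, falling to 69.6% of control (-0.51 ± 0.0419, adjusted p = 5.92e-05).

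**Figure D3:**
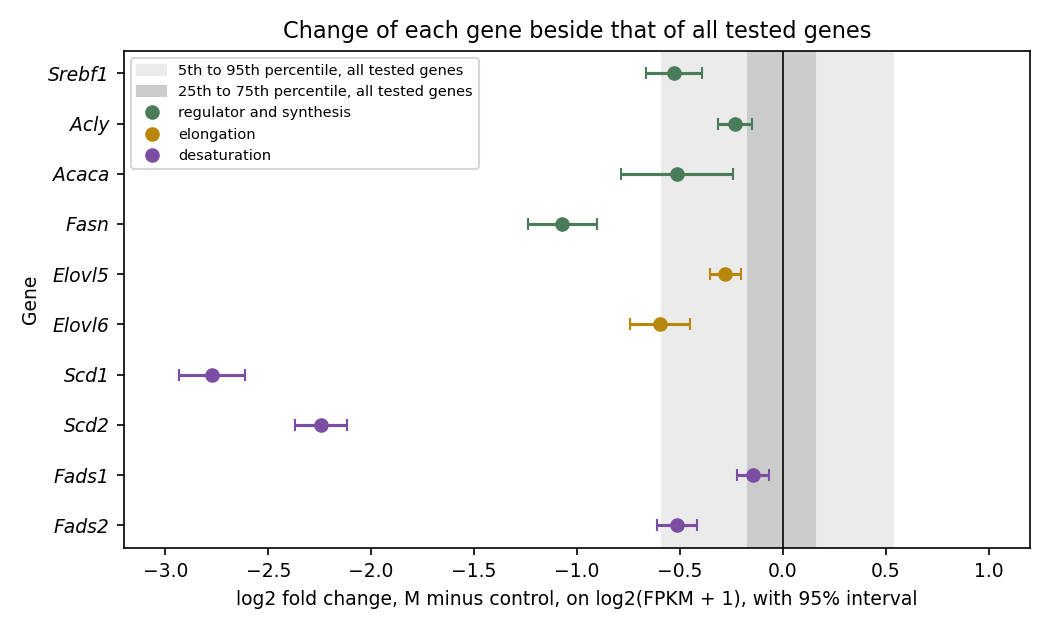
Log2 fold change (M minus control, on log2(FPKM + 1)) of each gene with its 95% interval from limma. Grey bands give the spread of all 10390 tested genes (5th to 95th percentile -0.58 to 0.53), and Fasn, Scd1 and Scd2 lie wholly below the bands, while Fads1 lies nearest to 0.

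By stage, the median log2 fold change was -0.52 for Srebf1 and the 3 synthesis enzymes, -0.44 for the 2 elongases and -1.38 for the 4 desaturases. The desaturase median lies between the pair Scd1 and Scd2 (-2.77 and -2.24) and the pair Fads1 and Fads2 (-0.14 and -0.51) and describes neither. The range within desaturation (-2.77 to -0.14) was wider than that within synthesis (-1.07 to -0.23) or elongation (-0.60 to -0.28). The stages hold too few genes to be set apart by a test, and the comparison was made on pairs of genes within each library. Across stages the pairs were Scd1/Fasn and Scd2/Elovl6, and none set synthesis against elongation. Fads1 and Fads2 fell less than Fasn (-1.07) and Elovl6 (-0.60), so Scd1/Fasn and Scd2/Elovl6 do not stand for desaturation as a stage.

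Ratios of 2 genes within a library do not depend on scaling between libraries. For 7 pairs the log2 ratio was compared between groups by a two-sided exact permutation test. The groups did not overlap in any of the 7 pairs, and the exact test gave p = 0.1 for each, the smallest that 3 libraries against 3 allow, also after adjustment over the 7. These differences are therefore given by their size and spread. As single genes, 5788 of the 10390 tested did not overlap between groups either, and the share for ratios of other pairs was not computed.

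Scd2 exceeded Scd1 by 11.1, 10.9 and 10.5 times in control 1 to 3 and by 29.4, 33.5 and 30.5 times in M 1 to 3. The log2 ratio Scd1/Scd2 was thus lower in M by a difference of -1.53 ± 0.0604 (SE, n = 3 per group). With 5 added to both values the sign of this difference turned (0.59), since that constant is larger than every M value of Scd1. The log2 ratio Scd1/Fasn changed by -2.70 ± 0.0699, so the RNA of the desaturase went down further than that of the synthase in all 3 M libraries. With 5 added to both values this difference was -0.56. Against elongation, the log2 ratio Scd2/Elovl6 changed by -1.54 ± 0.0935, from between 22.3 and 25.6 Scd2 per Elovl6 in control to between 7.60 and 9.06 in M.

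In the other pairs within a stage the differences were smaller. Fads1 per Fads2 went from 1.37 to 1.49 in control to 1.79 to 1.91 in M (log2 difference 0.38 ± 0.0499). Elovl5 per Elovl6 went from 10.7 to 11.7 to 15.1 to 15.6 (0.46 ± 0.0404, and 0.07 with 5 added to both). In synthesis, Fasn per Acaca went from 2.08 to 2.32 in control to 1.33 to 1.57 in M (-0.56 ± 0.0864), the lowest of these being M 1, where Acaca was highest. Acly per Acaca was 2.85 to 2.94 in control and 2.99, 3.995 and 3.87 in M 1 to 3 (0.31 ± 0.132), with M 1 barely outside the control range.

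These unequal falls changed which desaturase was most abundant. The 4 desaturases summed to 268 to 276 FPKM in control and to 137 to 140 in M. Scd1 and Scd2 together made up 49.0% to 49.7% of that sum in control and 17.6% to 20.1% in M. Fads1 alone made up 29.2% to 30.1% in control and 52.2% to 52.9% in M.

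**Figure D4:**
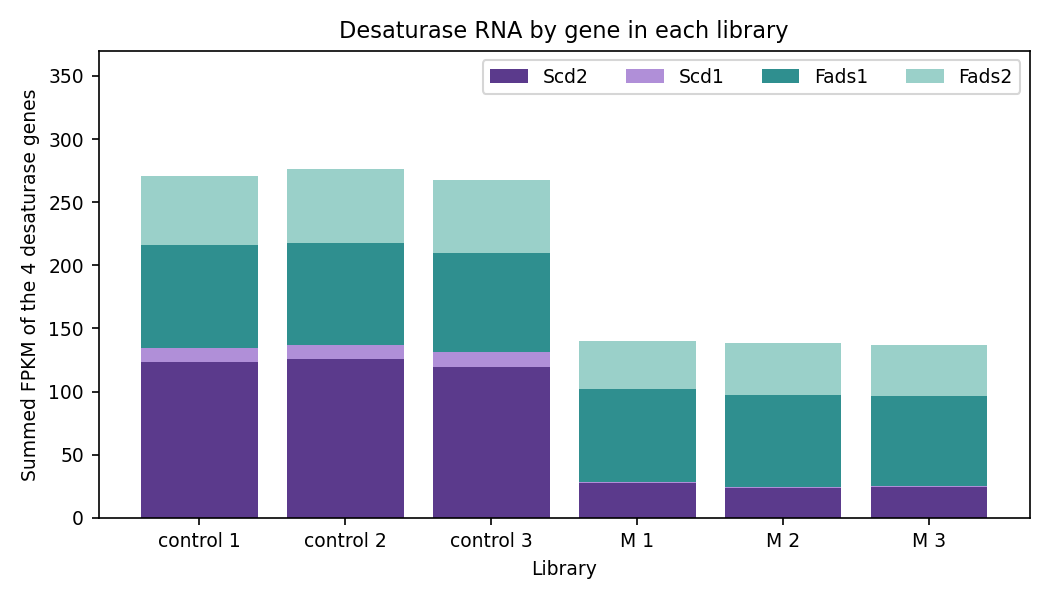
FPKM of the 4 desaturase genes stacked for each of the 6 libraries. The sum falls from 268 to 276 FPKM in control to 137 to 140 in M, and most of the loss is in Scd2.

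In control the order of FPKM per gene, which is a level per transcript length, was Scd2, Fads1, Elovl5, Fads2, Acly, Fasn, Srebf1, Acaca, Scd1 and Elovl6. Of neighbours in that order, only Elovl5 and Fads2 had overlapping ranges. In M the order was Fads1, Elovl5, Acly, Fads2, Scd2, Fasn, Srebf1, Acaca, Elovl6 and Scd1, and only Srebf1 and Acaca overlapped. Scd2 moved from number 1 to number 5 and Scd1 from number 9 to number 10.

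By the order of genes in RefSeq (GRCm38.p6, names and order only), Scd1 and Scd2 lie in one row with Scd3 and Scd4 on chromosome 19, with no other protein-coding gene among them. Scd3 and Scd4, further stearoyl-CoA desaturases, were below the filter. Scd3 stood at 0.679, 0.682 and 0.469 FPKM in control 1 to 3 and at 0.109, 0.132 and 0.133 in M 1 to 3, and Scd4 at 0.362, 0.389 and 0.156 against 0.0381, 0.0594 and 0. All 4 Scd genes were thus lower in every M library, with the reservation on shared fragments given above. Of the 2 protein-coding genes on either side of the row, only Bloc1s2, a subunit of a complex acting on lysosome-related organelles, was abundant enough to test, at 28.2 FPKM in control and 29.1 in M (log2 fold change 0.05, limma adjusted p = 0.654).

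Fads1 and Fads2 lie next to Fads3 on the same chromosome. Fads3, a further desaturase of the family, was below the filter, at 0.608, 0.811 and 0.572 FPKM in control 1 to 3 and at 1.22, 1.40 and 1.31 in M 1 to 3. It went the opposite way to Fads1 and Fads2 in all 3 M libraries. On its far side Rab3il1, a Rab exchange factor, rose from 46.5 to 56.5 FPKM (log2 fold change 0.27, limma adjusted p = 0.00225). On the side of Fads1, Fen1, a flap endonuclease, had a log2 fold change of -0.44 (0.460) and Tmem258, a subunit of the oligosaccharyltransferase, of -0.15 (0.481), neither of them called.

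Other genes of the pathway were taken from lists made by role. Of 8 further genes of synthesis, 5 were tested: 2 were lower and 2 higher (median log2 fold change -0.14, against -0.01 over all tested genes, of which 21.9% were called lower and 21.2% higher). Slc25a1, the mitochondrial citrate carrier that feeds Acly, fell from 17.9 ± 1.49 to 13.9 ± 1.03 FPKM (limma adjusted p = 0.00671). Mid1ip1, which activates acetyl-CoA carboxylase, fell from 34.7 ± 1.60 to 29.3 ± 0.370 (0.00348). Against this direction, Me1, the cytosolic malic enzyme that makes NADPH and a target of NRF2 as well, rose from 4.25 ± 0.0831 to 20.3 ± 0.391 FPKM (adjusted p = 1.41e-07), which is 2.02 ± 0.0466 (SE) on the log2 scale. Acacb, the carboxylase of the mitochondrial surface whose malonyl-CoA restrains fatty acid oxidation, rose from 1.09 ± 0.108 to 2.06 ± 0.338 FPKM (adjusted p = 0.00420). The paralogues Acaca and Acacb were thus called in opposite directions in the main analysis. With the most abundant transcript only, limma did not call Acaca (adjusted p = 0.221), and Acacb was below the filter. The acetyl-CoA synthetase Acss2 stood at 7.07 and 6.35 FPKM (adjusted p = 0.115). Thrsp and Mlxipl were below the filter and Olah was listed at 0 in all libraries.

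Of 11 further genes of elongation, 7 were tested, and limma called 0 lower and 2 higher (median 0.01; 1 lower and 2 higher at an unadjusted p under 0.05). Over all tested genes 21.9% were called lower and 21.2% higher. The ketoacyl reductase Hsd17b12, shared by all elongases, stood at 51.7 ± 2.46 and 57.9 ± 2.33 FPKM (adjusted p = 0.0302), and the dehydratase Hacd1 at 0.940 ± 0.264 and 1.63 ± 0.216 (0.0190). Neither call held throughout: Hsd17b12 was not called with no filter (0.0501), quantile normalization (0.118) or the most abundant transcript only (0.0530), nor without control 2 (0.0767), control 3 (0.0512), M 2 (0.102) or M 3 (0.0859). Hacd1 was not called with the most abundant transcript only (0.874), nor without control 1 (0.0621), control 3 (0.0563) or M 2 (0.0663). It averaged under 1 FPKM in control, so it passed the filter through its M values alone. The enoyl reductase Tecr, which completes each elongation cycle, was at 55.7 and 51.1 FPKM (adjusted p = 0.0503), and Elovl1, an elongase of saturated chains, at 31.8 and 29.6 (0.142). Elovl2 and Elovl7 were listed at 0 in all libraries.

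Stearoyl-CoA desaturases take their electrons from cytochrome b5. Of 7 further genes of desaturation, 4 were tested, with 1 lower and 3 higher (median 0.36), beside 21.9% and 21.2% of all tested genes. Cyb5a, the cytochrome b5 of the endoplasmic reticulum, rose from 48.6 ± 1.43 to 92.2 ± 3.95 FPKM, a log2 fold change of 0.91 ± 0.0438 (SE, limma adjusted p = 5.43e-06). Its reductase Cyb5r3 rose from 28.8 ± 1.26 to 36.5 ± 0.8501 (adjusted p = 6.47e-04), and the desaturase-like gene Fads6 from 2.89 ± 0.267 to 4.07 ± 0.123 (0.00433). Cyb5b, the cytochrome of the outer mitochondrial membrane, fell from 35.7 ± 1.25 to 31.1 ± 1.31 (0.0123). The electron donors of the endoplasmic reticulum thus went up while Scd1 and Scd2 went down.

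**Figure D5:**
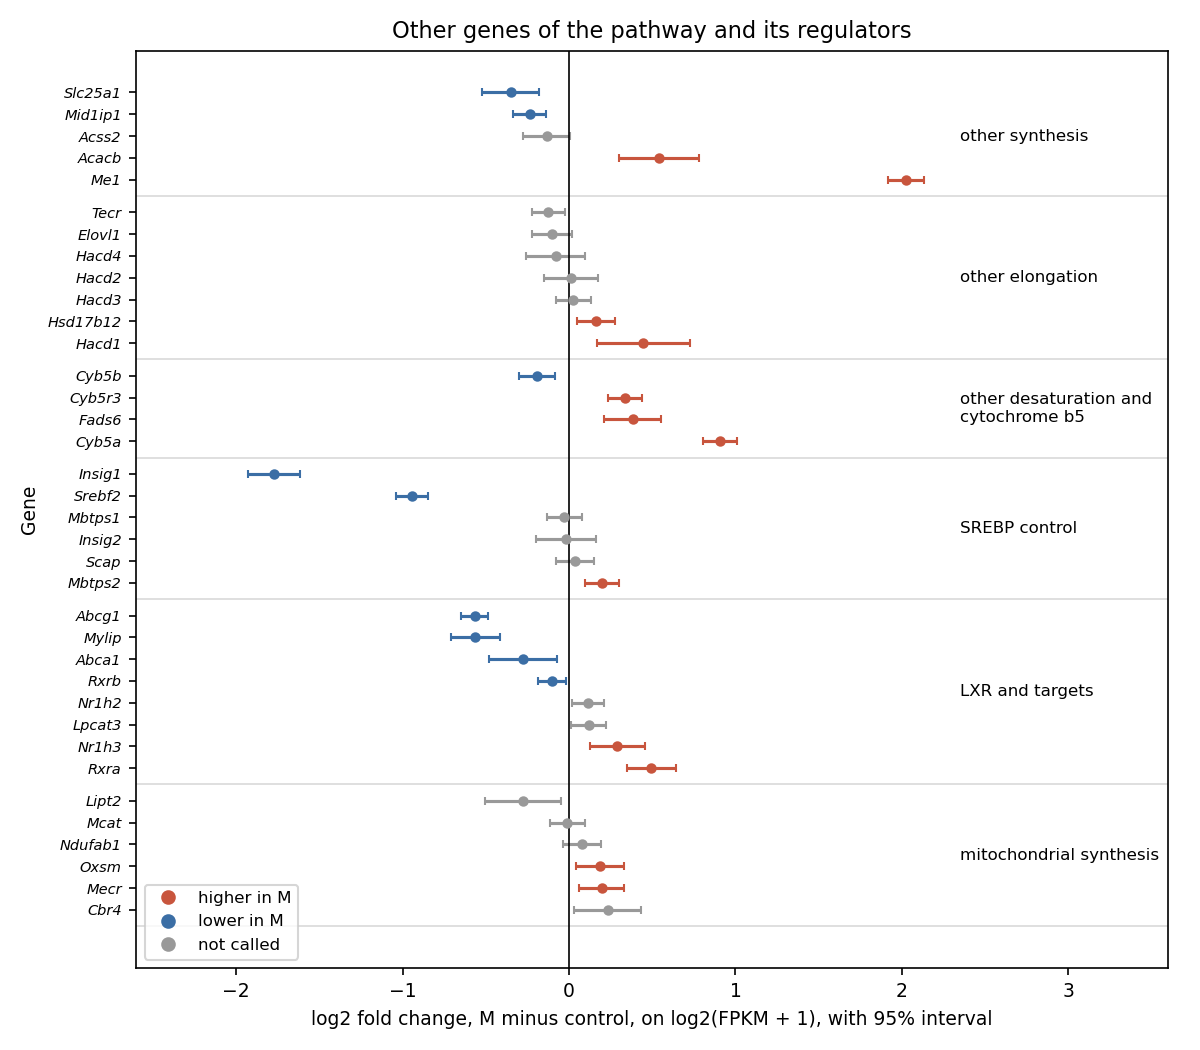
Log2 fold change (M minus control, on log2(FPKM + 1)) with 95% interval for the tested genes of the 6 other lists, red where called higher, blue where called lower and grey where not called. Each list but that of elongation and that of mitochondrial synthesis holds calls in both directions. Over all tested genes 21.9% were called lower and 21.2% higher.

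Among 6 genes that control SREBP release or encode its SREBP-2 form, 2 were lower and 1 higher (median -0.02). The shares over all tested genes were 21.9% lower and 21.2% higher. Insig1, which holds SREBP in the endoplasmic reticulum and is itself an SREBP target, fell from 19.5 ± 1.02 to 5.01 ± 0.399 (limma adjusted p = 1.89e-06), and Srebf2, encoding SREBP-2, from 40.4 ± 0.952 to 20.5 ± 0.698 (4.07e-06). Srebf2 stood at 50.8% of control in M, against 68.0% for Srebf1, a difference that was not tested. The parts of the release machinery were not called or higher: the escort Scap (20.7 and 21.3 FPKM, adjusted p = 0.583) and the proteases Mbtps1 (33.2 and 32.6, 0.644) and Mbtps2 (27.5 and 31.8, higher at 0.00839). Insig2, which like Insig1 holds SREBP back, was not called (9.97 and 9.81 FPKM, 0.863).

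Of 8 genes of LXR, its partners and targets, 4 were lower and 2 higher (median 0.01), beside 21.9% and 21.2% of all tested genes. The LXR target Mylip, a ubiquitin ligase, fell from 9.01 ± 0.184 to 5.78 ± 0.448 FPKM (limma adjusted p = 3.02e-04), and the exporter Abcg1 had a log2 fold change of -0.57. Receptor genes went both ways. Rxrb, a partner of LXR, fell from 48.3 ± 0.648 to 44.9 ± 0.938 (limma adjusted p = 0.0472), a call lost with median-of-ratios scaling (0.0549), with the most abundant transcript only (0.203) and without control 1 (0.115), control 2 (0.102), control 3 (0.0716), M 2 (0.142) or M 3 (0.119). Nr1h2, LXR beta, stood at 20.2 and 21.9 FPKM (0.0560). Rxra, another partner, chosen like Rxrb and Nr1h2 after its values were seen, rose from 6.23 ± 0.377 to 9.19 ± 0.474 (5.78e-04), and Nr1h3, LXR alpha, stood at 3.28 ± 0.184 and 4.24 ± 0.265 (called higher at 0.0123, but with a log2 fold change of -0.20 when only its most abundant transcript is taken). Lpcat3, an LXR target that places polyunsaturated chains in phospholipids, was at 17.7 and 19.2 FPKM (adjusted p = 0.0659). The exporter Abca1 was called lower (0.0358), a call lost with no filter (0.0626), quantile normalization (0.0577) or the most abundant transcript only (0.0729), and without control 1 (0.101), control 2 (0.105), M 1 (0.0819) or M 3 (0.111).

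Mitochondria hold a separate synthesis pathway that makes the precursor of lipoic acid. Of its 7 listed genes 6 were tested, and limma called 0 lower and 2 higher (median 0.13; 1 lower and 3 higher at an unadjusted p under 0.05). The shares called over all tested genes were 21.9% lower and 21.2% higher. Mecr, its enoyl reductase, stood at 18.3 ± 1.29 and 21.0 ± 0.753 FPKM (adjusted p = 0.0280), and the ketoacyl synthase Oxsm at 10.6 ± 0.158 and 12.2 ± 0.988 (0.0408). Both calls ended with the most abundant transcript only (0.0783 and 0.987), and that of Oxsm with no filter (0.0612). Leaving out M 2 ended both calls (0.0823 and 0.115), as did control 1 (0.0778 and 0.106) and control 2 (0.0783 and 0.0788). Leaving out M 1 ended that of Mecr (0.0764), and control 3 (0.0799) or M 3 (0.0810) that of Oxsm. Lipt2, which transfers the octanoyl precursor of lipoic acid, stood at 2.39 ± 0.401 and 1.78 ± 0.0754 FPKM, with no overlap between groups and no call (log2 fold change -0.28, adjusted p = 0.0539).

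The genes whose level followed that of Scd1 most closely over the 6 libraries, among 8394 genes averaging at least 5 FPKM, were Arsb (a lysosomal sulfatase), Pcna (the replication clamp) and Oxct1 (a ketone-body enzyme), each with Pearson's r of 0.999 or more. For Scd2 they were Ncoa3, a nuclear receptor coactivator, with Pcna and Oxct1. With 2 separated groups, such values mostly record a large gap between groups and a small spread within them.

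Summed mRNA FPKM lay between 375467 and 390581 per library, and FPKM carry no counts, so the depth in reads is unknown. The 11 macrophage symbols on the list stood for 10 markers, since Emr1 is an older symbol of Adgre1. All 10 markers were in the table and 9 averaged at least 1 FPKM, with Mertk at 0.128 FPKM in control and 0.127 in M. Their sum was higher in M, at 7578 to 7865.7 FPKM against 5848 to 6268 in control, mostly from Lyz2 (4610 and 6069 FPKM), and its part in the results was not tested. Adipocyte markers, relevant because fat cells express these enzymes strongly, summed to 0.0491 to 0.306 FPKM in control and 0 to 0.206 in M, with Adipoq, Plin1, Cidec, Lep and Cfd listed at 0 throughout. The hepatocyte sum was at most 0.0547 FPKM, the fibroblast sum at most 0.408, the endothelial sum at most 0.273 and the B cell sum at most 0.0862, while the 3 T cell markers in the table were listed at 0. Neutrophil markers summed to 0 to 0.191 FPKM in control and 0.541 to 0.870 in M, almost wholly from S100a8, with S100a9 and Ly6g at 0. Dendritic cell markers summed to 2.56 to 3.44 in control and 1.59 to 2.05 in M, and the part of either in the results was not tested.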

How the data were processed

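RNA of 3 control and 3 M macrophage libraries was analysed from the deposited mRNA table, whose values are FPKM per transcript computed by the authors. Per the submitters' processing notes the build was mm9, with the aligner, quantifier, annotation and filters not given in the sources used here. Columns were matched to samples by their labels. The lncRNA table was not used.

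Transcripts were summed per symbol, genes averaging under 1 FPKM were left out, and log2(FPKM + 1) was modelled by group in limma 3.58.1 (R 4.3.3), with a robust, trended eBayes step, two-sided p-values, Benjamini-Hochberg adjustment over all tested genes and a threshold of 0.05. The code was tested on simulated data. The transcript fit was added after the data were seen. Pair ratios used exact permutation tests in scipy 1.17.1. Alternatives were pseudocounts of 0.1 and 5, no filter, 2 scalings, the most abundant transcript only, a replicate block and leaving out each library.

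The genes and lists were chosen with earlier results of these data known. Named genes were the 10 genes, up to 4 called genes per list by smallest adjusted p (otherwise the 2 most abundant), 4 named in advance, and the 3 closest to Scd1 and to Scd2; other genes were named after their values were seen. A gene first placed in the SREBP list was taken out of it and is not reported here. Promoters came from RefSeq (GRCm38.p6). FPKM give no depth, so no counting intervals could be set.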

Additional observations from a re-analysis of the deposited data

How the results depend on the processing

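Under all 13 alternatives the 10 genes had a negative log2 fold change, and 10 were called lower, except with the most abundant transcript only, where 9 were and Acaca was not (log2 fold change -1.69, adjusted p = 0.221). The weakest of the other calls was that of Fads1 without control 1 (adjusted p = 0.0420). With a pseudocount of 5 the log2 ratio Scd1/Scd2 reversed to a difference of 0.59 between groups, by the construction of that setting, and the differences of Scd1/Fasn and Elovl5/Elovl6 shrank to -0.56 and 0.07. The log2 fold change of Nr1h3 was -0.20 with the most abundant transcript only; the cause was not tested.

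Counts in the short lists moved. With the most abundant transcript only, 1 further synthesis gene was higher (2 in the main analysis), 0 further elongation genes were higher (2), 2 LXR genes were lower (4) and 1 mitochondrial gene was higher (2). With no filter, 1 elongation gene and 1 mitochondrial gene were higher, and 3 further desaturation genes were lower (1). One elongation gene was lower with a pseudocount of 5, with median-of-ratios scaling and with quantile normalization (1 each, against 0), and with quantile normalization 1 was higher and 1 mitochondrial gene was lower (0). Leaving out single libraries gave 0 to 1 elongation genes lower and 0 to 2 higher, 2 to 3 LXR genes lower, and 0 to 1 mitochondrial genes lower and 0 to 1 higher. The causes were not tested.

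Same-numbered libraries did not deviate together (r = 0.0664, 0.00520 and -0.0347 for numbers 1, 2 and 3), and control 2 and control 3 did not correlate best with their own number. With the replicate block 10 of the 10 genes were called lower, 2196 of all genes were lower and 2104 higher (2274 and 2206 without it), and 1 elongation gene was higher. The block ended the calls of Hsd17b12 (adjusted p = 0.0597), Mecr (0.0572) and Rxrb (0.0755). FPKM without counts leave genes near 1 FPKM, such as Scd1 in M, without a counting error.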
